A study of Mus musculus with 6 samples.

Results

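The genes described here encode the superoxide dismutases (Sod1, Sod2, Sod3), catalase (Cat) and the peroxiredoxins (Prdx1 to Prdx6) of the mouse lung. They are the 10 genes of 55573 in the count table whose Ensembl identifier carries one of these symbols in GENCODE M21, and each symbol matched 1 identifier. All 10 had enough reads to be tested. All 6 libraries were RNA-seq libraries of total lung RNA, and the mice were wild type C57BL/6, 9 to 10 weeks old. In the SS-31H_CS group (3 libraries) the mice breathed cigarette smoke and were given SS-31, a peptide antioxidant targeted to mitochondria, at the dose labelled high, 5 mg/kg once a day. In the CS group (3 libraries) they breathed smoke alone in 2 sessions of 75 min a day, 5 days a week, over 4 weeks, and the labels give that schedule for this group alone. Smoke is therefore shared by both groups, and no smoke-free lung was among the 6 libraries, so no value below shows what smoke itself did. Nothing in the labels ties each library to its own mouse, so p-values measure only the spread between libraries, which may be technical.

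Superoxide dismutases turn superoxide into hydrogen peroxide and oxygen. Catalase and the peroxiredoxins then remove hydrogen peroxide, catalase in the peroxisome without an added reductant and the peroxiredoxins through a reactive cysteine that most of them have reduced again by thioredoxin. The enzymes are divided by place: Sod1, Prdx1, Prdx2 and Prdx6 are mainly cytosolic, Sod2 and Prdx3 sit in mitochondria, Prdx5 is found in several compartments including mitochondria, Prdx4 works in the secretory pathway and Sod3 is secreted into the matrix around vessels and airways. In the lung they form the first enzymatic line against the oxidants of inhaled smoke and of activated phagocytes. The study concerns airway inflammation and oxidative stress under smoke, and these genes are the ones whose products remove the oxidants directly.

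Prdx1 to Prdx4 are close paralogs, and the stretch they are best known to share lies around the cysteine that reacts with peroxide. The 45 coding bases around that codon (GRCm38, GENCODE M21 transcripts, the codon in capitals) are shown because reads of such similar paralogs could be misassigned:
Prdx1: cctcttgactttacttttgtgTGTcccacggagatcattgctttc
Prdx2: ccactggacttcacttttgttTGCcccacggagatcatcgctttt
Prdx3: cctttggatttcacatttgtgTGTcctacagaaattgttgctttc
Prdx4: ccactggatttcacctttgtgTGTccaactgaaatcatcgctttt
Prdx5: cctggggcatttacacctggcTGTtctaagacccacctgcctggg
Prdx6: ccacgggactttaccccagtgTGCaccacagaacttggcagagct
These stretches lie at chr4:116691802-116691846 on the plus strand for Prdx1 (exon 3), chr8:84970462-84970506 on the plus strand for Prdx2 (exon 3) and chr1:161247347-161247391 on the minus strand for Prdx6 (exon 2). They cross an exon junction on the minus strand in Prdx3 (exons 3 and 4, chr19:60870106-60871430), Prdx4 (exons 2 and 3, chrX:155332439-155334848) and Prdx5 (exons 1 and 2, chr19:6907659-6908011). The codon was TGT in 4 genes and TGC in 2. Prdx1 and Prdx2 had the same base at 38 of 45 positions, as did Prdx2 and Prdx4, whereas Prdx5 and Prdx6 shared 19 of 45. Over whole coding sequences the longest run of identical bases between any 2 peroxiredoxins was 23 bases (Prdx2 and Prdx4), and between any 2 superoxide dismutases it was 10 bases (Sod1 and Sod3). Over aligned coding bases with gaps left out, identity ran from 56.9% (Prdx2 and Prdx6) to 70.0% (Prdx1 and Prdx2) among peroxiredoxins. Among superoxide dismutases it ran from 60.6% (Sod2 and Sod3) to 66.5% (Sod1 and Sod3), so the highest values lie little above the lowest. The annotated genes named after a member, Prdx6b, Prdx6-ps2 and Prdx2-rs3, had 0 counts in all 6 libraries. Copies annotated under other names were not searched for. Exons of Prdx5 share 19.1% of their length with Trmt112 on the other strand, and exons of Prdx2 share 5.80% with Rnaseh2a and 5.67% with Junb, also on the other strand. Because the strand setting of the counting is not given in the sources used here, reads in those stretches cannot be assigned with certainty.

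The promoter table held 8 of the 10 genes. The letters TGACNNNGC, the core of the antioxidant response element that NRF2 binds, were searched on both strands in the 250 bases before each RefSeq start. They occurred in 2 of 8 (Prdx1 and Sod1), against 10.2% of 32851 promoters in all. Those windows are printed up to the first GENCODE transcript start (RefSeq sequence, GRCm38.p6, plus strand), with the match in capitals:
Prdx1, chr4:116685349-116685543: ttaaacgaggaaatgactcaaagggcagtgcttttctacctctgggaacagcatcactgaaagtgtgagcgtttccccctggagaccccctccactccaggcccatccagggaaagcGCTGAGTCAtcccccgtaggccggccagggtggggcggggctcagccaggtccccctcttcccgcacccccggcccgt
Sod1, chr16:90220512-90220753: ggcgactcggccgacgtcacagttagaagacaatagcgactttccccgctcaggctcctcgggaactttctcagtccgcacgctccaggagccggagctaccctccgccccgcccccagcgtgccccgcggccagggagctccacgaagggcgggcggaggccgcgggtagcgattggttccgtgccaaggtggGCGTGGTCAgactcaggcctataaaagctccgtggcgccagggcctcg
The Prdx1 match, at chr4:116685466-116685474, begins 133 bases before the RefSeq start, which lies downstream of the end of the printed window, and also holds the AP-1 letters TGAGTCA, which 4.46% of all promoters contain. The Sod1 match, at chr16:90220706-90220714, begins 56 bases before the RefSeq start, counted in the same way. The GC box GGGCGG, searched in the same way, was in 7 of 8 windows, against 32.7% of all promoters. A match in letters is a description and shows no binding.

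Total counts ranged from 15611925 to 17360052 per library, so 3 counts corresponded to 0.172 to 0.185 CPM (counts scaled to a common library size after TMM normalization). The libraries of a group did not lie together closely: CS replicate 3 and SS-31H_CS replicate 3 formed the ends of the first principal component (-61.3 and 44.8, 46.4% of the variance). The groups nevertheless lay apart on that component. CS replicates 1, 2 and 3 were at -14.4, -7.19 and -61.3, and SS-31H_CS replicates 1, 2 and 3 at 12.5, 25.6 and 44.8. A total of 16965 genes were tested, and 26 passed edgeR's quasi-likelihood test at an adjusted p under 0.05. Marker genes of the labelled tissue were abundant, with summed alveolar type 2 markers (10 of 10 found, none at 0) at 18217 to 24361 CPM in SS-31H_CS and 20527 to 22784 CPM in CS. In whole lung, fewer cells of a type and less RNA per cell cannot be told apart.

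Levels of different genes were compared as FPKM (counts scaled by library total and by exon length), whose length term matched the merged exons of GENCODE M21 to within 0.007% for each member. Prdx6, a peroxidase that also acts on phospholipids in lung surfactant turnover, was the most abundant of the 10 in each library, at 218 to 316 FPKM in SS-31H_CS and 244 to 269 FPKM in CS. By mean FPKM it lay above 99.3% of the tested genes. Sod3 (median over 6 libraries 109 FPKM), Cat (93.5 FPKM), Prdx5 (85.5 FPKM) and Prdx1 (83.0 FPKM) followed. Their order was not fixed: Sod3 exceeded Cat in 4 of 6 libraries, Cat exceeded Prdx5 in 5 of 6, and Prdx5 exceeded Prdx1 in 3 of 6. Sod1 (54.9 FPKM) lay below Prdx1 and above Prdx2 in 6 of 6 libraries. Prdx2 (32.6 FPKM) and Prdx3 (32.7 FPKM) changed places, with Prdx2 higher in 4 of 6. Sod2 (12.7 FPKM) and Prdx4 (12.3 FPKM) were lowest, with Sod2 higher in 3 of 6. The Sod2 value is divided by 10008 bases of merged exons from 8 annotated transcripts, the longest length among the members, against 1478 bases for Prdx3.

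**Figure D1:**
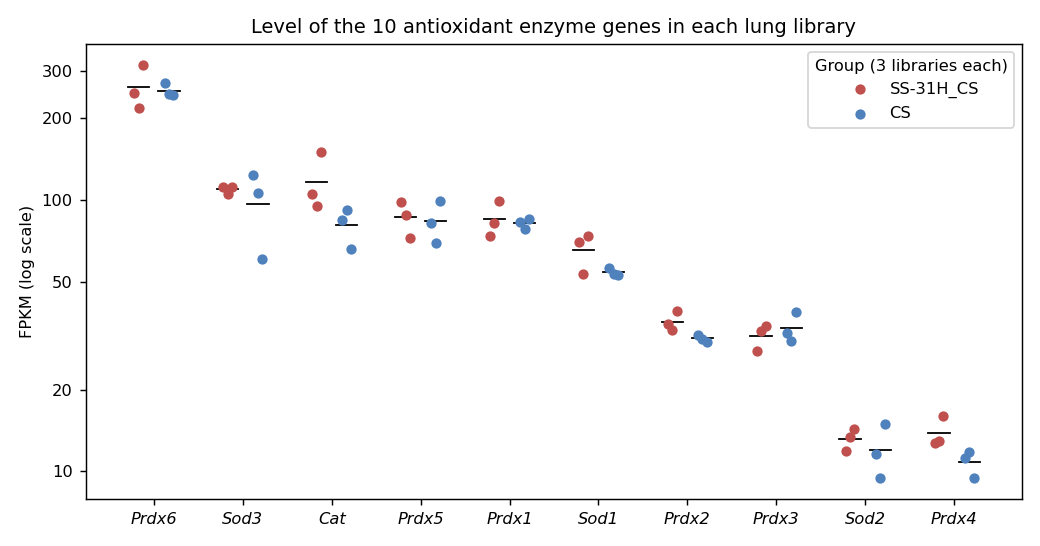
FPKM on a log axis for each of the 10 genes in the 3 SS-31H_CS and the 3 CS libraries; points are libraries and the black lines are group means. Prdx6 lies above all other members in each library, and the group values interleave or lie close for most genes.

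Within families the leading members held nearly equal mean shares in both groups. Prdx6 made up 50.5% ± 4.08 of the summed peroxiredoxin FPKM in SS-31H_CS and 51.2% ± 2.64 in CS (SD, n = 3 each). Prdx1 made up 16.6% ± 1.47 in SS-31H_CS and 16.6% ± 0.262 in CS. Sod3 made up 58.3% ± 2.64 of the summed superoxide dismutase FPKM in SS-31H_CS and 58.1% ± 9.63 in CS, where replicate 3 was at 47.1%. The smaller shares of Prdx2 (6.96% ± 0.196 in SS-31H_CS and 6.26% ± 0.324 in CS) and Prdx4 (2.70% ± 0.112 in SS-31H_CS and 2.20% ± 0.336 in CS) did not overlap between groups, and these shares were not tested. The summed FPKM of the 10 genes was 819 ± 98.1 in SS-31H_CS and 739 ± 43.6 in CS. The groups overlapped in that sum, since SS-31H_CS replicate 2 (735 FPKM) lay below CS replicate 1 (787 FPKM). The mitochondrial enzymes Sod2 and Prdx3 together came to 44.9 ± 4.54 FPKM in SS-31H_CS and 45.8 ± 7.08 FPKM in CS.

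None of the 10 genes differed between SS-31H_CS and CS in edgeR's quasi-likelihood test when adjusted over all tested genes (0 higher and 0 lower, lowest adjusted p = 0.254). Of all tested genes 0.153% passed (0.0707% higher and 0.0825% lower), and the members' count of 0 lies at that background. At an unadjusted p under 0.05 there was 1 member (Cat), against 18.2% of all tested genes, and DESeq2 called 0 members, against 5.57% of the genes it adjusted. The log2 fold changes (SS-31H_CS over CS) ran from -0.15 to 0.48, with 6 positive and 4 negative. Their median size without regard to sign was 0.14, against 0.22 over all tested genes, and their median with sign was 0.11, against 0.011. The 95% intervals limit what these libraries leave possible: they lay within a 2-fold change in either direction for 10 of 10 members and within a 1.5-fold change for 7 (all but Sod3, Cat and Prdx4). A p above the threshold does not show that the groups are alike, and the intervals are the statement the data allow. Group values did not overlap in 1 of 10 members (Prdx4), against 26.1% of all tested genes.

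**Figure D2:**
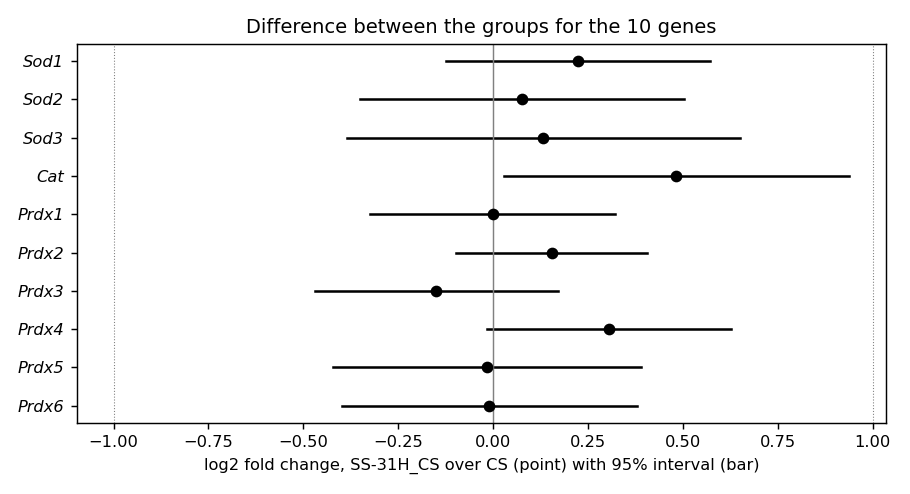
Log2 fold change, SS-31H_CS over CS, for each of the 10 genes (points) with its 95% interval (bars) from edgeR's fit; dotted lines mark a 2-fold change. All 10 intervals stay inside the dotted lines, and only that of Cat leaves out 0.

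Sod1 encodes the copper and zinc superoxide dismutase of the cytosol (ENSMUSG00000022982, chromosome 16, 90220754 to 90226329). It had 278, 202 and 291 CPM in SS-31H_CS replicates 1, 2 and 3, against 228, 211 and 222 CPM in CS replicates 1, 2 and 3. SS-31H_CS replicate 2 was the lowest of the 6 and the other SS-31H_CS libraries were the highest, so the groups overlapped. The log2 fold change was 0.22 (SE 0.15, edgeR adjusted p = 0.464), with an interval from 0.918-fold to 1.49-fold.

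Sod2 encodes the manganese enzyme in the matrix of mitochondria, the organelle to which SS-31 is targeted (ENSMUSG00000006818, chromosome 17, 13006846 to 13040063). It had 119, 128 and 143 CPM in SS-31H_CS, against 117, 94.2 and 158 CPM in CS. The CS libraries held both the lowest and the highest value, with SS-31H_CS between them. The log2 fold change was 0.077 (SE 0.19, edgeR adjusted p = 0.850), with an interval from 0.785-fold to 1.42-fold, and it was -0.087 without CS replicate 2. Sod2 is also known to rise in inflamed tissue. Summed neutrophil markers (10 of 10 found, none at 0) were 3842, 1955 and 606 CPM in SS-31H_CS, against 3357, 2691 and 3701 CPM in CS. In SS-31H_CS they fell from replicate 1 to replicate 3 while Sod2 rose. In CS both this sum and Sod2 were lowest in replicate 2 and highest in replicate 3. The mean log2 deviation of the 10 markers was 0.518, 0.225 and 0.344 in CS replicates 1, 2 and 3. It was 0.671, -0.122 and -1.637 in SS-31H_CS replicates 1, 2 and 3. By that measure replicate 1, not replicate 3, was the highest of the CS group. The part of neutrophils in the Sod2 values was not tested.

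Sod3 encodes the extracellular enzyme, made in the lung by vascular and mesenchymal cells among others (ENSMUSG00000072941, chromosome 5, 52363791 to 52371418). It had 416, 375 and 418 CPM in SS-31H_CS, against 469, 396 and 238 CPM in CS. CS replicate 3 stood far below the other 5 libraries, which lay close together. The log2 fold change was 0.13 (SE 0.23, edgeR adjusted p = 0.781), with an interval from 0.765-fold to 1.57-fold. It was -0.10 without CS replicate 3 and 0.34 without CS replicate 1, so its sign rests on single libraries. CS replicate 3 also had the lowest summed fibroblast markers (10 of 10 found, none at 0), 3521 CPM, against 4697 to 5110 CPM in SS-31H_CS and 4545 to 4587 CPM in the other CS libraries. Smooth muscle markers (10 of 10 found, none at 0) were not low in it, at 922 CPM within a range of 678 to 1044 CPM in SS-31H_CS and 788 to 922 CPM in CS. The part of these cells in the Sod3 value was not tested.

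Cat, which encodes catalase (ENSMUSG00000027187, chromosome 2, 103453849 to 103485160), had the largest log2 fold change of the 10. It had 275, 237 and 390 CPM in SS-31H_CS, against 224, 239 and 182 CPM in CS. SS-31H_CS replicate 3 was highest and CS replicate 3 lowest, and the groups met where SS-31H_CS replicate 2 lay just below CS replicate 2. On the deposited FPKM, which are scaled by library total alone, the groups did not meet, with 95.1 to 150 FPKM in SS-31H_CS and 66.3 to 91.9 FPKM in CS. The mean was 301 ± 79.8 CPM in SS-31H_CS and 215 ± 29.4 CPM in CS (SD, n = 3 each). The log2 fold change was 0.48 (SE 0.20, edgeR adjusted p = 0.254, unadjusted p = 0.0401), with an interval from 1.02-fold to 1.92-fold. Leaving out CS replicate 3 gave 0.37, and leaving out SS-31H_CS replicate 3 gave 0.25. Catalase is abundant in red blood cells and airway epithelium. Summed erythroid markers (9 of 10 found, none at 0) were 909 to 1045 CPM in SS-31H_CS, against 816 and 889 CPM in CS replicates 1 and 2 and 262 CPM in CS replicate 3. Summed club cell markers (10 of 10 found, none at 0) were 40840, 29735 and 65794 CPM in SS-31H_CS, against 31285, 26040 and 25738 CPM in CS. That sum weights the most abundant markers: the mean deviation of the 10 markers on the log2 scale was 0.31, 0.30 and 0.17 in SS-31H_CS replicates 1, 2 and 3, and -0.079, -0.36 and -0.35 in CS replicates 1, 2 and 3. SS-31H_CS replicate 3, highest in the sum, was thus the lowest of its group by that measure. Of the 10 genes, 6 were higher at an unadjusted p under 0.05, against 1684 of all 16965 tested genes. Of them 1, the secretoglobin Scgb3a2, passed the adjusted threshold (log2 fold change 1.44, SE 0.18, edgeR adjusted p = 0.0467), against 0.0707% of all tested genes. Summed ciliated cell markers (10 of 10 found, none at 0) were 1813 to 2915 CPM in SS-31H_CS and 1603 to 1694 CPM in CS. Of these 10 genes, 9 were higher at an unadjusted p under 0.05, against the same 1684 of 16965. Markers of other lung cell types did not all lie higher in SS-31H_CS. Summed alveolar macrophage markers were 810 to 1210 CPM in SS-31H_CS and 1688 to 2100 CPM in CS. Summed alveolar type 2 markers overlapped between groups and, like Cat, were highest in SS-31H_CS replicate 3. The part of any of these cell types in the Cat values was not tested.

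Among the typical 2-Cys peroxiredoxins, the thioredoxin-dependent dimers, Prdx1 (ENSMUSG00000028691, chromosome 4, 116685544 to 116700822) had 225, 240 and 302 CPM in SS-31H_CS, against 258, 236 and 273 CPM in CS. The SS-31H_CS libraries held both the lowest and the highest value. The log2 fold change was -0.00087 (SE 0.14, edgeR adjusted p = 0.999), with an interval from 0.799-fold to 1.25-fold. Prdx1 is a known NRF2 target and is, with Sod1, one of the members whose promoters carry the antioxidant response match printed above.

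Prdx2, the cytosolic form that is also abundant in red blood cells (ENSMUSG00000005161, chromosome 8, 84969587 to 84974834), had 106, 97.0 and 118 CPM in SS-31H_CS, against 98.9, 93.2 and 96.6 CPM in CS. It varied least of the 10, with the highest library 1.27 times the lowest. Its log2 fold change was 0.15 (SE 0.11, edgeR adjusted p = 0.481), with an interval from 0.935-fold to 1.32-fold. On FPKM the groups did not overlap, at 33.3 to 38.9 FPKM in SS-31H_CS and 30.1 to 31.9 FPKM in CS. Summed erythroid markers ranged from 909 to 1045 CPM in SS-31H_CS and from 262 to 889 CPM in CS, lowest in CS replicate 3, and their part in the Prdx2 values was not tested.

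Prdx3, the mitochondrial form (ENSMUSG00000024997, chromosome 19, 60864051 to 60874556), had 41.1, 46.5 and 50.4 CPM in SS-31H_CS, against 48.5, 44.6 and 60.1 CPM in CS. CS replicate 3 was highest and SS-31H_CS replicate 1 lowest, with the others mixed. Its log2 fold change was -0.15 (SE 0.14, edgeR adjusted p = 0.591), with an interval from 0.722-fold to 1.12-fold, and it was -0.022 without CS replicate 3.

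Prdx4, which acts in the endoplasmic reticulum (ENSMUSG00000025289, chromosome X, 155323918 to 155340754), had 26.8, 26.0 and 33.5 CPM in SS-31H_CS, against 24.0, 24.8 and 20.9 CPM in CS. Each SS-31H_CS library was above each CS library, by a narrow margin apart from SS-31H_CS replicate 3. The log2 fold change was 0.31 (SE 0.14, edgeR adjusted p = 0.299, unadjusted p = 0.0604), with an interval from 0.988-fold to 1.54-fold. It was 0.18 without SS-31H_CS replicate 3. Prdx4 is prominent in antibody-secreting cells, and summed B and plasma cell markers (10 of 10 found, none at 0) were 942 to 1478 CPM in SS-31H_CS and 829 to 1143 CPM in CS. These markers were highest in SS-31H_CS replicate 2, where Prdx4 was not, and lowest in CS replicate 3, where Prdx4 was lowest too. Their part in the Prdx4 values was not tested.

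Prdx5, the atypical 2-Cys enzyme (ENSMUSG00000024953, chromosome 19, 6906697 to 6910106), had 209, 180 and 155 CPM in SS-31H_CS, against 179, 148 and 223 CPM in CS. The CS libraries held both ends of the range. The fold change on the log2 scale was -0.016 (SE 0.18, edgeR adjusted p = 0.970), with an interval from 0.746-fold to 1.31-fold. Over single libraries left out it ran from -0.15 to 0.15.

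Prdx6, the 1-Cys enzyme (ENSMUSG00000026701, chromosome 1, 161240112 to 161251219), had 1191, 999.9 and 1512 CPM in SS-31H_CS, against 1314, 1178 and 1235 CPM in CS. The SS-31H_CS libraries were more spread than the CS libraries and lay on both sides of them (1234 ± 259 CPM in SS-31H_CS and 1242 ± 68.3 CPM in CS, SD, n = 3 each). On the log2 scale the fold change was -0.0095 (SE 0.17, edgeR adjusted p = 0.982), with an interval from 0.759-fold to 1.30-fold. Prdx6 is high in alveolar type 2 and club cells. The library with the lowest Prdx6, SS-31H_CS replicate 2, also had the lowest alveolar type 2 marker sum of the 6 (18217 CPM), and SS-31H_CS replicate 3 had the highest of both (24361 CPM for the markers). Summed club cell markers were also highest in SS-31H_CS replicate 3 (65794 CPM). They were not lowest in SS-31H_CS replicate 2, at 29735 CPM, against 26040 and 25738 CPM in CS replicates 2 and 3. Their mean log2 deviation was 0.305 in SS-31H_CS replicate 2 and 0.175 in SS-31H_CS replicate 3. The part of these cells in the Prdx6 values was not tested.

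Single libraries stood at the end of the range for several members at once. SS-31H_CS replicate 3 was the highest library for 6 of 10 members (Sod1, Cat, Prdx1, Prdx2, Prdx4 and Prdx6) and the lowest for 0. CS replicate 3 was highest for 3 (Sod2, Prdx3 and Prdx5) and lowest for 3 others (Sod3, Cat and Prdx4). On the log2 CPM scale, its deviation from the mean of the 6 libraries was -0.66 for Sod3 and -0.46 for Cat, but 0.34 for Sod2, 0.32 for Prdx3 and 0.31 for Prdx5. Mitochondrial Sod2 and Prdx3, and Prdx5, which is mitochondrial only in part, were thus above their mean in that library. Of the cytosolic members, Prdx1 (0.10) and Prdx6 (0.007) were also above it, and Sod1 (-0.089) and Prdx2 (-0.069) below it. Prdx4 was at -0.30. These are the values of 1 library, and a pattern by compartment was not tested. As a description over 6 libraries that share their group and depth, Cat and Prdx4 followed each other most closely of the 45 pairs (Pearson r of log2 CPM 0.99), then Sod1 and Prdx2 (0.92). Sod2 and Prdx3 had r = 0.74, and Sod3 and Prdx3 were the most opposed pair (-0.75).

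**Figure D3:**
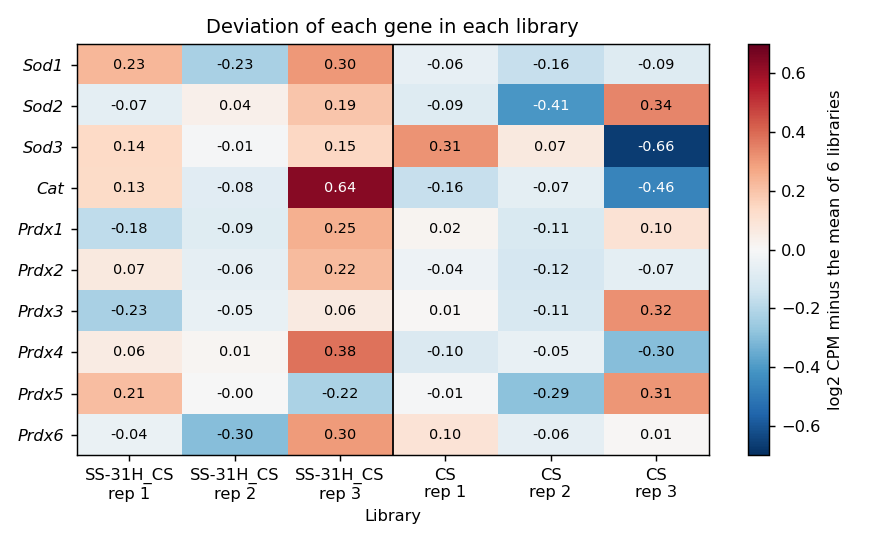
Log2 CPM of each gene minus its mean over the 6 libraries, with SS-31H_CS libraries left of CS libraries; red is above the mean and blue below. CS replicate 3 is blue for Sod3, Cat and Prdx4 and red for Sod2, Prdx3 and Prdx5, and SS-31H_CS replicate 3 is red for 9 of 10 genes, the exception being Prdx5.

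The 3 members that varied most over the libraries were Cat, Sod3 and Sod2 (SD of log2 CPM 0.37, 0.34 and 0.26). Out of 15739 other tested genes that averaged 1 CPM or more, the patterns most like Cat were those of Atp13a4 (Pearson r 0.996 over 6 libraries), Acss1 (0.995) and Fhdc1 (0.994). Those most like Sod3 were Rarres1 (0.995), Kctd21 (0.990) and Steap3 (0.988), and those most like Sod2 were Ndufs5 (0.992), Banf1 (0.989) and Sco2 (0.984). Each is the top of 15739 values over 6 points and is given as a description.

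The genes that work beside the members did not pass the test either. Of 23 such genes, 0 passed by edgeR's test, against 0.153% of all tested genes. DESeq2 called 0 of the 23, against 5.57% of the genes it adjusted. Most of the 23 load copper into the dismutases, reduce or repair the peroxiredoxins or remove peroxide beside them. Txnip, which inhibits thioredoxin, and Ero1l, which forms hydrogen peroxide, act the other way. At an unadjusted p under 0.05 there were 7 of 23 (2 higher, 5 lower), against 18.2% of all tested genes. Txnip was among the 2 higher (log2 fold change 0.37, edgeR adjusted p = 0.267). The median log2 fold change was -0.095, against 0.011 over all tested genes. Group values did not overlap in 7 of 23 (30.4%), against 26.1% of all tested genes, which is close to that background. Summed alveolar macrophage markers (10 of 10 found, none at 0) also lay apart, at 810 to 1210 CPM in SS-31H_CS and 1688 to 2100 CPM in CS, and their part in these values was not tested. Srxn1 encodes sulfiredoxin, which restores peroxiredoxins whose cysteine has been overoxidized. It had 40.6, 30.9 and 36.3 CPM in SS-31H_CS, against 49.0, 50.5 and 159 CPM in CS. Each CS library was above each SS-31H_CS library, and CS replicate 3 was far above the other 5. Its log2 fold change was -1.26 (SE 0.43, edgeR adjusted p = 0.198), and -0.47 without CS replicate 3.

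Txnrd1 encodes the cytosolic thioredoxin reductase that keeps thioredoxin, and through it the peroxiredoxins, reduced. It had 99.8, 99.9 and 120 CPM in SS-31H_CS, against 137, 124 and 178 CPM in CS (log2 fold change -0.46, SE 0.16, edgeR adjusted p = 0.199). The groups did not overlap, and the value was -0.29 without CS replicate 3. Sesn2, a stress-induced sestrin, had 21.2, 21.1 and 23.5 CPM in SS-31H_CS, against 27.2, 26.6 and 29.6 CPM in CS (-0.34, SE 0.11, edgeR adjusted p = 0.189). Gpx8, a peroxidase of the endoplasmic reticulum, lay the other way, with 28.6, 31.4 and 44.3 CPM in SS-31H_CS, against 25.6, 22.7 and 23.0 CPM in CS (0.55, SE 0.17, edgeR adjusted p = 0.174). The Gpx8 value was 0.33 without SS-31H_CS replicate 3. Neither Sesn2 nor Gpx8 overlapped between groups.

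**Figure D4:**
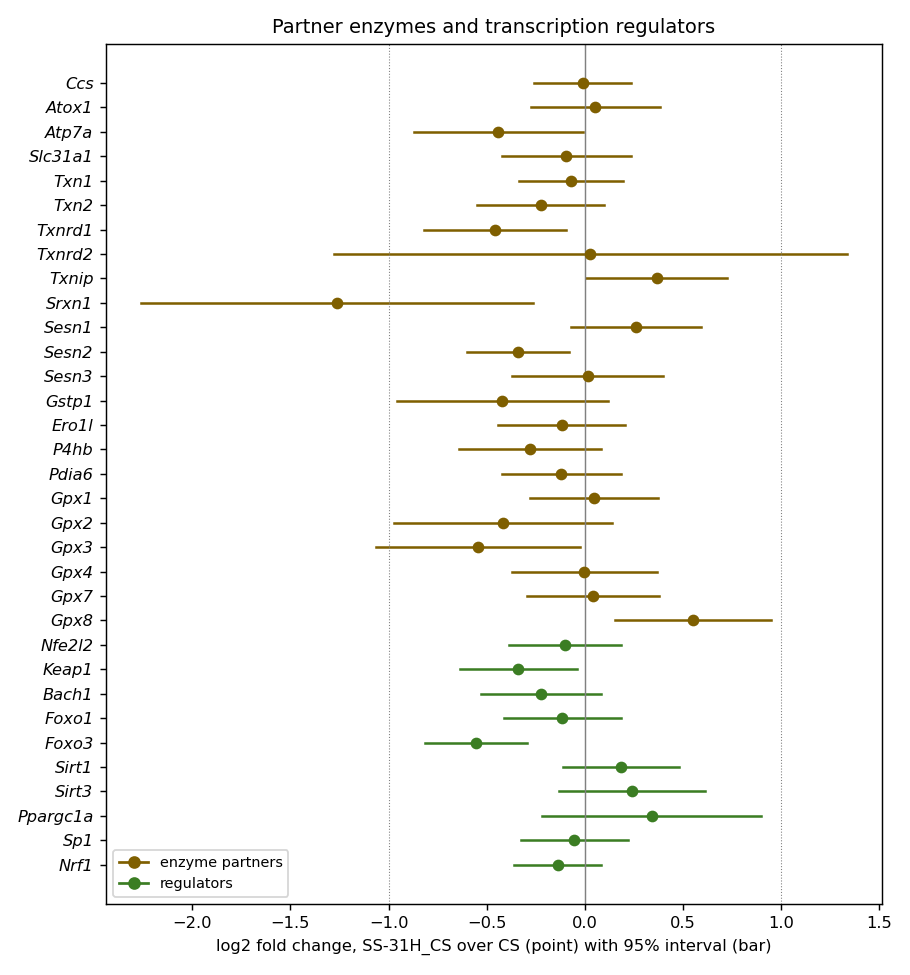
Log2 fold change, SS-31H_CS over CS (points), with 95% intervals (bars) from edgeR's fit for 23 partner genes and 10 regulators. Dotted lines mark a 2-fold change. Srxn1 lies farthest from 0, at -1.26, and Foxo3 has the interval farthest from 0 among the regulators.

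Of 24 tested peroxisome genes, the import factors, transporters and oxidases of the organelle that holds catalase, 0 passed by edgeR's test. The share of all tested genes that passed was 0.153%. DESeq2 called 0 of the 24, against 5.57% of the genes it adjusted. At an unadjusted p under 0.05 there were 2 of 24, both higher, against 18.2% of all tested genes. The median log2 fold change was 0.018. Pex10, a ubiquitin ligase of the import machinery, had 21.3, 15.4 and 21.8 CPM in SS-31H_CS, against 13.4, 14.6 and 14.0 CPM in CS (0.48, SE 0.17, edgeR adjusted p = 0.203). Acox2, an oxidase that forms hydrogen peroxide while shortening bile acid side chains and branched fatty acids, had 10.6, 13.0 and 23.8 CPM in SS-31H_CS, against 8.03, 10.6 and 9.39 CPM in CS. Its log2 fold change was 0.76 (SE 0.30, edgeR adjusted p = 0.243), and 0.33 without SS-31H_CS replicate 3. Pex6 and Pex13, import factors, had log2 fold changes of 0.40 (edgeR adjusted p = 0.315) and 0.26 (edgeR adjusted p = 0.319).

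Among 10 regulators known to act on these genes, on their transcription factors or on the Sod2 protein, 0 passed by edgeR's test. The share of all tested genes that passed it was 0.153%. By DESeq2 1 of the 10 passed, Foxo3, and DESeq2 called 5.57% of all genes it adjusted. At an unadjusted p under 0.05 there were 2 of 10, both lower, against 18.2% of all tested genes. Foxo3 encodes a forkhead factor that can activate Sod2 and Cat. It had 130, 107 and 111 CPM in SS-31H_CS, against 167, 178 and 166 CPM in CS. The groups were well apart, with each SS-31H_CS library below each CS library. Its log2 fold change was -0.55 (SE 0.11, edgeR adjusted p = 0.0916), with an adjusted p of 0.00199 by DESeq2 and 0.0358 by edgeR without the low-count filter, in a range of 0.00199 to 0.282 over all 16 alternatives. Keap1, the NRF2 inhibitor, had 87.2, 80.9 and 76.5 CPM in SS-31H_CS, against 97.0, 91.8 and 121 CPM in CS (-0.34, SE 0.13, edgeR adjusted p = 0.235). Bach1, a repressor of antioxidant response elements, had a log2 fold change of -0.22 (edgeR adjusted p = 0.408), and Sirt3, a mitochondrial deacetylase that acts on the Sod2 protein, one of 0.24 (edgeR adjusted p = 0.462).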

How the data were processed

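Lung RNA of 6 libraries (3 SS-31H_CS, 3 CS) was analysed from 2 deposited tables. One holds unnormalized counts of reads by Ensembl gene and the other FPKM, both as deposited. Per the submitters' processing notes, cutadapt 1.9.1, HISAT2 2.0.1 and HTSeq 0.6.1 were used on GRCm38, and the annotation release, strand setting, read length and filters are not given in the sources used here. Symbols and coordinates came from GENCODE M21 (55394 of 55573 identifiers matched), and promoter sequences from RefSeq (GRCm38.p6).

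All genes passing edgeR's low-count filter (minimum count 10, minimum total 15) were tested together in edgeR 4.0.16 (R 4.3.3) with TMM normalization, the quasi-likelihood test and Benjamini-Hochberg adjustment, two-sided. Fold changes have SS-31H_CS on top. SE and 95% intervals were derived from the F statistic and the fit's degrees of freedom, and in simulated data the intervals held the true value slightly less often than their nominal level. Intervals cover the spread between 3 libraries a group.

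The members, gene lists and tests were chosen with earlier results of these data known. Named genes are all members and the 4 genes with the lowest p in each list of partners, peroxisome genes and regulators. Also named are the 3 genes most correlated with each of the 3 most variable members. Txnip and Ero1l are named for their opposite roles. Marker lists are given by counts and levels over the list, apart from Scgb3a2. That gene was named after its value was seen, as the 1 club cell marker past the adjusted threshold. The 16 alternatives were RLE size factors, scaling by library size only, testing without the low-count filter, requiring 1 CPM in 3 libraries, DESeq2 1.42.0, limma 3.58.1 voom, limma with a trend on log2-transformed FPKM (pseudocount 1 or 0.1, genes averaging 0.5 FPKM or more, or pseudocount 1 without that filter), a block for replicate number, and dropping 1 library at a time. With 1 library left out, the 2 left are assumed to vary like the other group.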

Additional observations from a re-analysis of the deposited data

How the results depend on the processing

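No member passed an adjusted p of 0.05 under any of the 16 alternatives (0 of 10 in each, lowest adjusted p 0.192, for Cat by DESeq2). Of 160 member values recomputed, 137 kept their sign and 23 turned it, all of them for Sod2, Sod3, Prdx1, Prdx5 or Prdx6. With library size alone Prdx1 was 0.055, Prdx5 0.045 and Prdx6 0.042, and with the filter at 1 CPM in 3 libraries Prdx1 was 0.0027. On log2(FPKM + 1), with or without the FPKM filter, Prdx1 was 0.044, Prdx5 0.048 and Prdx6 0.026, and on log2(FPKM + 0.1) Prdx1 was 0.045, Prdx5 0.048 and Prdx6 0.026. Over single libraries left out, the ranges were -0.087 to 0.29 for Sod2, -0.10 to 0.34 for Sod3, -0.14 to 0.076 for Prdx1, -0.15 to 0.15 for Prdx5 and -0.19 to 0.12 for Prdx6. The cause of these turns was not tested. The partner genes, with 0 calls, had 1 without the low-count filter (Srxn1). The regulators, with 0 calls, had 1 without that filter and 1 by DESeq2 (Foxo3 in both). The peroxisome genes had 0 throughout. With the replicate number as a block 0 genes were called in these 4 lists. Deviations of same-numbered libraries correlated at 0.0072, 0.0363 and -0.0571. On the second principal component (19.3% of the variance) only the replicate 3 libraries were negative. They lay at -25.55 in CS and -34.43 in SS-31H_CS. With 3 libraries a group, these values cannot decide whether the numbers pair the libraries. Over all genes the 26 calls became 648 without the low-count filter, 941 by DESeq2, 12 with library size alone, 4 to 6 by limma, 0 with the block and 1 to 15 with a library left out. Depth was not low for any member, but 3 libraries a group limit the precision, and the upper ends of the intervals run from 1.12-fold (Prdx3) to 1.92-fold (Cat).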
